A study of Mus musculus with 4 samples.

Results

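Runx3 binding was examined at the Toll-like receptor genes Tlr1, Tlr2, Tlr3, Tlr4, Tlr5, Tlr6, Tlr7, Tlr9 and Tlr11 and at Unc93b1, which encodes the chaperone that carries the intracellular receptors to endosomes. Peaks were assigned to a gene when the peak centre lay in the gene body or within 20 kb of it in the GENCODE M1 annotation of the mouse genome build mm9. By this rule 18 of the 15121 Runx3 peaks belonged to these genes. At least 1 peak was present at 8 of the 10 genes, beside 50.4% of all protein-coding genes. Tlr1 and Tlr11 had none.

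The peaks came from ChIP-seq, which sequences the DNA that precipitates with a protein, in sorted splenic CD11chiMHCII+CD4+ conventional dendritic cells (cDC). The cells were from mice labelled C57BL/6, except that the strain of the second input sample is written C57BL/7. Chromatin from cells pooled over several mice was precipitated with a polyclonal anti-Runx3 antibody made by the authors in 2 samples, and 2 samples of whole cell extract (input) served as the control. The paper describes the cells used for ChIP-seq as wild type. The labels list no altered allele and no treatment for any of the 4 samples. The age of these mice was not given in the sources used here. The deposited list is a single call on both immunoprecipitates against both inputs, so a peak has 1 score and no value per replicate. No difference in score could therefore be set against the spread between replicates, and no test was made. The depth of each sample was not analysed here, so a gene without a peak is a gene at which none was called at the depth used. A peak list holds no expression values, so the sorted cell type could not be checked against its marker genes.

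Toll-like receptors recognise conserved molecules of microbes and signal through adaptor proteins to NF-kappaB and interferon regulatory factors, which turn on cytokine and interferon genes. Tlr1, Tlr2, Tlr4, Tlr5 and Tlr6 act at the cell surface, and Tlr3, Tlr7, Tlr9 and mouse Tlr11 act in endosomes. Dendritic cells use them to sense infection and to mature before they prime T cells. Runx3 is a transcription factor of the RUNX family, whose DNA-binding domain recognises the hexamer TGTGGT, which reads ACCACA on the other strand. PU.1, an ETS family factor of myeloid cells, binds sites with the core GGAA, and the hexamer GGAAGT is used here for it.

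The sequences below are those under the highest-scoring peak of Unc93b1, Tlr2, Tlr9, Tlr5 and Tlr4. They are shown because the peaks at these genes differ in whether they hold the RUNX hexamer at all. Each is written in the direction of transcription of its gene from the mm9 assembly, trimmed to at most 300 bases, with annotated exons left out. Capitals mark TGTGGT on either strand in Tlr5 peak 1, and GGAAGT on either strand in the stretches that held no TGTGGT. Peaks of a gene are numbered in its direction of transcription.
The Unc93b1 peak 3 stretch covers chr19:3935904-3936189 on the plus strand, between annotated exons.
Unc93b1 peak 3: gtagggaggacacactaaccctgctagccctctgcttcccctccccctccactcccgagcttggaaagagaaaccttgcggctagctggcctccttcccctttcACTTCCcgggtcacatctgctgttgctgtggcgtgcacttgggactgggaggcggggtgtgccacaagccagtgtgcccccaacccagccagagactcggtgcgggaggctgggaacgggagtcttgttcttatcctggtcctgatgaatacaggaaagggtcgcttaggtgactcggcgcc
The Tlr2 stretch covers chr3:83645690-83645823 on the minus strand, directly upstream of exon 1, and has no capitals because both GGAAGT of this peak lay in exon 1.
Tlr2 peak 1: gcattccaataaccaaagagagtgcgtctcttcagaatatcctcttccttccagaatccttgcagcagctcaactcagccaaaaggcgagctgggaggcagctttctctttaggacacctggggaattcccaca
The Tlr9 stretch covers chr9:106132451-106132750 on the plus strand, downstream of the gene, and leaves out the single TGTGGT of this peak, which lay 229.5 bp from the centre.
Tlr9 peak 2: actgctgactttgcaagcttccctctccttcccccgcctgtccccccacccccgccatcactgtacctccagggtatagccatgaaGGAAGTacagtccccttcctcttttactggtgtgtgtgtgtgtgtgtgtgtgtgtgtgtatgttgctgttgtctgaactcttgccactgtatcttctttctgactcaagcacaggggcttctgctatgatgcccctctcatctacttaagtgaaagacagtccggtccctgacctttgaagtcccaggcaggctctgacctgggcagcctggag
The Tlr5 stretch covers chr1:184867621-184867920 on the plus strand, upstream of the gene.
Tlr5 peak 1: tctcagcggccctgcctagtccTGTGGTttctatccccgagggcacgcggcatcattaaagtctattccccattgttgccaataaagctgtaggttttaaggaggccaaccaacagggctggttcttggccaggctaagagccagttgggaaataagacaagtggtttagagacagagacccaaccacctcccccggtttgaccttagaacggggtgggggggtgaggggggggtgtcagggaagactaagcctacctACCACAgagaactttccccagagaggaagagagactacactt
The Tlr4 stretch covers chr4:66488411-66488617 on the plus strand and ends at the start site of Tlr4.
Tlr4 peak 1: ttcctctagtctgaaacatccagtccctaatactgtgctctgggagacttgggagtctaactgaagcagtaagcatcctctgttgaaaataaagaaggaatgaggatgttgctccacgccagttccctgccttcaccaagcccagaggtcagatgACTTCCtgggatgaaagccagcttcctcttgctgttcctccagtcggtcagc

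Among the cell surface receptors 4 of 5 genes had a peak, beside 50.4% of protein-coding genes, with 8 peaks in all. Tlr2, the receptor for bacterial lipoproteins, held the highest of them. Tlr2 peak 1 (chr3:83645378-83645823) had a score of 23.4, higher than or equal to 75.8% of all peaks, and its centre lay 88 bp into exon 1. The score is a number given by the peak caller MACS2, whose unit is not stated, and it serves here only to rank peaks against each other. Tlr2 peak 2 (chr3:83643354-83643674) lay in intron 2, 2175 bp from the start site, with a score of 7.2. The start-site peak held 2 GGAAGT and no TGTGGT, whereas the intronic peak held 3 TGTGGT and 1 GGAAGT.

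Tlr4, the receptor for lipopolysaccharide, had low-scoring peaks. Tlr4 peak 1 (chr4:66488411-66488672) was centred 76 bp upstream of the start site, with a score of 6.57 at percentile 22.9 of the list. It held 2 GGAAGT and no TGTGGT. Tlr4 peak 2 (chr4:66504339-66504627) had a score of 5.46 and 1 TGTGGT. Its centre lay 649 bp past the end of the transcript Tlr4-001, which spans 15217 bp, but inside the longer annotated transcript Tlr4-004, which extends the gene body to 102701 bp.

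Tlr5, the flagellin receptor, had no peak in its body or near its start site. Tlr5 peak 1 (chr1:184867560-184867982) was centred 17148 bp upstream with a score of 10.38, and Tlr5 peak 2 (chr1:184921050-184921439) 15070 bp past the end of the gene with a score of 9.84. Both scores were below the median of the list, 12.14, and both peaks held TGTGGT but no GGAAGT. The start site nearest to each of these peaks was that of Tlr5.

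Tlr6 and Tlr1, which pair with Tlr2 to recognise different lipoproteins, are neighbours on chromosome 5. Tlr6 had peaks in intron 1, at 217 bp and 709 bp from the start site. Tlr6 peak 1 (chr5:65350844-65351296) scored 5.3, and Tlr6 peak 2 (chr5:65350421-65350734) scored 3.69, the lowest value at these genes and at percentile 4.7 of the list. Both intronic peaks held TGTGGT and GGAAGT, and both also held the IRF motif GAAANNGAA, which interferon regulatory factors bind. Tlr1 (chr5:65316050-65324000) had no peak, and the nearest peak centre was that of Tlr6 peak 2 at a distance of 26578 bp from its body. The body of Tlr6 ends 20345 bp from the start site of Tlr1, so that with a 50 kb limit the Tlr6 peaks also counted for Tlr1.

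Of the 4 endosomal receptor genes 3 had a peak, beside 50.4% of protein-coding genes, with 5 peaks in all. Tlr3, the receptor for RNA duplexes, had the highest score at any of the genes and no other peak. Tlr3 peak 1 was centred 4589 bp upstream of the start site, outside annotated genes. Its score of 36.63 was rank 1902 of the list and at percentile 87.4. It held both TGTGGT and GGAAGT.

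Tlr7, the receptor for RNA single strands, lies on chromosome X and had low-scoring peaks. Tlr7 peak 2 (chrX:163756764-163757118) was in intron 2, 11549 bp from the start site, with a score of 5.81 and a TGTGGT 10.5 bp from its centre. Tlr7 peak 1 (chrX:163775962-163776215) was centred 7599 bp upstream with a score of 4.23, and held neither hexamer. Chromosome X held 179 peaks, 1.18% of the list, with a median score of 9.16.

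Tlr9, the receptor for CpG DNA, had a peak at its start site and another past its end. Tlr9 peak 1 (chr9:106124546-106125059) was centred 126 bp upstream with a score of 14.96. It held 1 GGAAGT, 1 AP-1 motif TGACTCA and no TGTGGT. Tlr9 peak 2 (chr9:106132188-106133014) had the higher score, 20.98, and was the widest peak at these genes at 827 bp. It was centred 3394 bp past the end of Tlr9 and 6814 bp from the start site of Alas1, which encodes an enzyme of haem synthesis and was nearer to it than the start site of Tlr9 at 7672 bp. Which of these genes it belongs to cannot be told from a peak list.

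Tlr11, the mouse receptor for a profilin of protozoa, is a gene of 1 exon on chromosome 14 (chr14:50980177-50983337) with Olfr735, an olfactory receptor gene, in its window. No peak was called there, and the nearest peak centre lay 421766 bp away, 73 bp from a start site of Ttc5.

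Unc93b1 had more peaks than any of the receptors, 5 in all, of which 3 were centred in its body. Among protein-coding genes with a peak 6.59% had 5 or more. The 2 highest were Unc93b1 peak 3 (chr19:3935724-3936189), in intron 2 at 771 bp from the start site with a score of 29.95, and Unc93b1 peak 4 (chr19:3942084-3942654), in exon 6 at 7183 bp with a score of 24.06. Peak 4 was centred 71 bp from the start of an annotated transcript with a retained intron. Unc93b1 peak 5 (chr19:3943028-3943353) lay in intron 7 with a score of 9.16. The window of Unc93b1 also holds Aldh3b1, an aldehyde dehydrogenase gene, and Unc93b1 peak 1 (chr19:3929608-3929869), with a score of 4.23, was centred 22 bp from the start site of that gene and 5447 bp upstream of Unc93b1.

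Unc93b1 peak 2, centred 124 bp upstream of the start site, had a score of 5.26, at percentile 11.9, and held both TGTGGT and GGAAGT. Unc93b1 peak 3, with the highest score at the gene, held 1 GGAAGT and no TGTGGT, and peak 5 held neither but had the variant RUNX hexamer TGCGGT 6.5 bp from its centre.

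**Figure D1:**
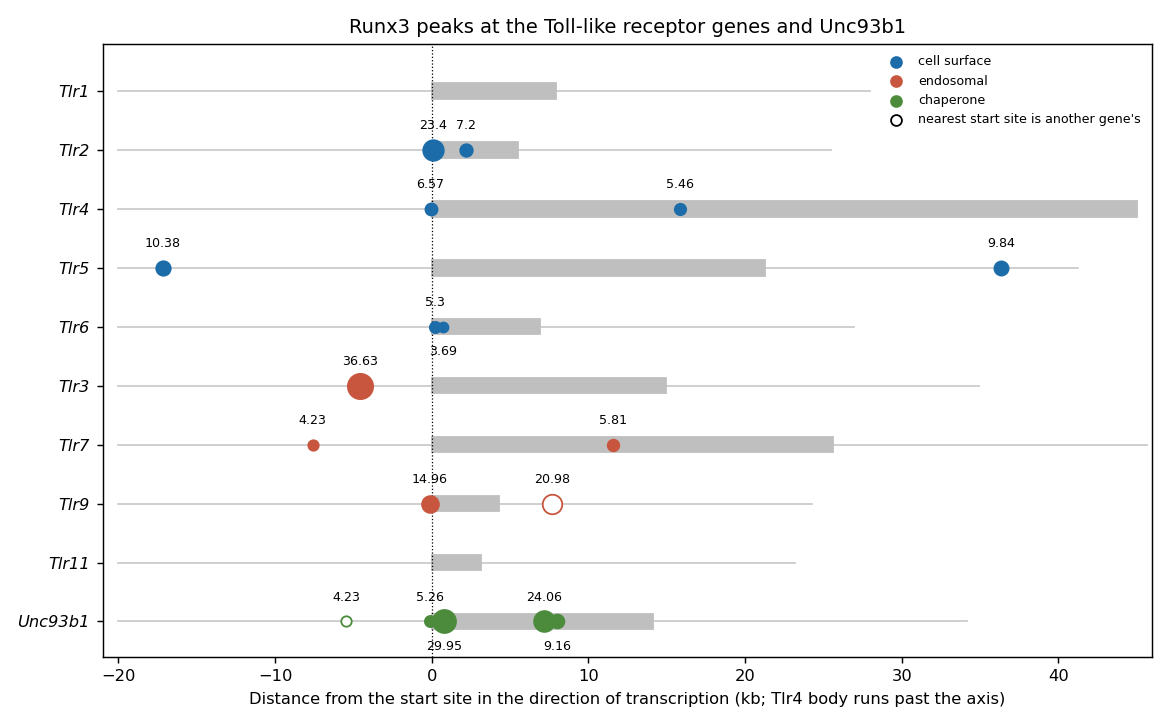
Position of each Runx3 peak centre relative to the start site of its gene, in kb in the direction of transcription. Grey boxes are gene bodies, thin lines the windows reaching 20 kb to either side, circle area grows with the peak score printed beside it, and open circles are peaks whose nearest start site is that of another gene. At Tlr2, Tlr4, Tlr6, Tlr9 and Unc93b1 at least 1 peak sits near the start site. All peaks of Tlr3, Tlr5 and Tlr7 lie away from it, and Tlr1 and Tlr11 have none.

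The share of these genes with a peak was above that of genes in general. Of 22367 protein-coding genes 50.4% had a peak under the same rule, beside 8 of 10 here. Among the 15705 genes with windows as long as those of the 10 genes, 43161 to 142701 bp, it was 57.0%. The 10 genes were ahead at each of the distances tried, but came near the general share when low scores were left out. With scores at or above the list median 4 of the 10 had a peak beside 34.0% of protein-coding genes, and with scores in the upper quartile 3 of the 10 beside 20.2%. With peaks centred in the gene body alone 5 of the 10 genes were bound beside 23.2% of protein-coding genes, and with a limit of 5 kb 7 of the 10 beside 38.4%. At 100 kb 9 of the 10 were bound beside 72.1%. The windows of the 10 genes held 2.97 peaks per 100 kb, and those of protein-coding genes a mean of 1.24. The assigned peak farthest from its gene was Tlr5 peak 1, and the nearest peak beyond the limit lay 22417 bp from Unc93b1 with a score of 26.87. With 10 genes chosen when results of these data were known, these are counts set side by side and not a test.

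**Figure D2:**
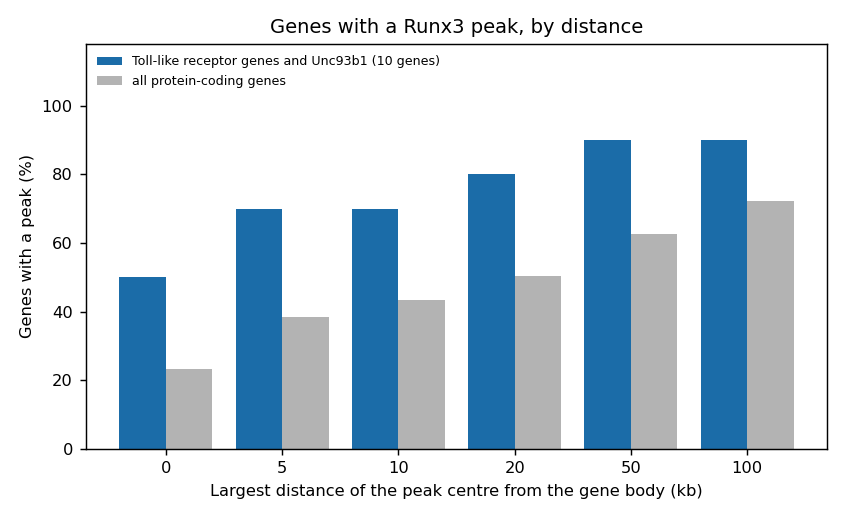
Percent of genes with a Runx3 peak against the largest distance allowed between the peak centre and the gene body, in kb, with 0 meaning the body alone. Dark bars are the 10 genes and grey bars all protein-coding genes. The dark bars run from 50.0% to 90.0% and the grey bars from 23.2% to 72.1%.

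A peak centred within 1 kb of a start site was found at 5 of the 10 genes (Tlr2, Tlr4, Tlr6, Tlr9 and Unc93b1), beside 24.9% of protein-coding genes. At 8 of the 10 genes at least 1 peak had that gene's own start site as the nearest, beside 32.0% of all protein-coding genes. These were all 8 of the bound genes, beside 63.4% of the bound protein-coding genes. Their promoters were poor in CpG. The ratio of observed to expected CpG in the 500 bp to either side of the start site had a median of 0.362 at the 10 genes and 0.549 at protein-coding genes, and 9 of the 10 lay below that value, Tlr6 with 0.712 being the exception. Of the protein-coding genes below it 33.1% had a peak in their window, beside 7 of these 9, and 8.43% had a peak within 1 kb of a start site, beside 4 of these 9.

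Most scores at these genes were below the median of the list. Their own median was 8.18, with a range of 3.69 to 36.63, and that of the list 12.14. Of the 18 peaks 12 were below the list median and 8 below its lower quartile of 7.2. An upper-quartile peak, with a score of 23.19 or more, was present at 3 genes (Tlr2, Tlr3 and Unc93b1), and 20.2% of protein-coding genes had such a peak. The highest score per bound gene had a median of 15.68 at the 8 genes and of 18.13 at all bound protein-coding genes, with a median of 2 peaks per gene in each. The median score was 7.86 for peaks within 1 kb of a start site (n = 10) and 8.52 for those farther away (n = 8). Wider peaks scored higher, with a Spearman rho of 0.815 over the 18 peaks and 0.712 over the list, where width and score come from the same reads.

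**Figure D3:**
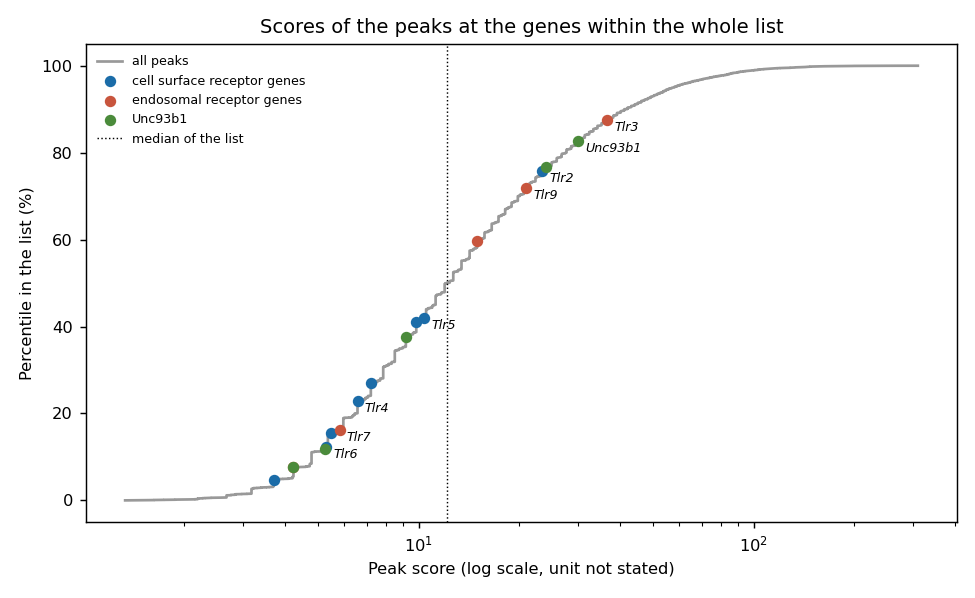
Percentile in the list of 15121 peaks (vertical axis, %) against peak score (horizontal axis, log scale, in the caller's unit). The grey line is the whole list, points are the 18 peaks, names mark the highest peak of each gene and the dotted line is the list median of 12.14. Peaks of Tlr4, Tlr5, Tlr6 and Tlr7 all lie left of the median, and the highest are at Tlr3, Unc93b1 and Tlr2.

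The RUNX hexamer TGTGGT was present on either strand in 12 of the 18 peaks, or 66.7%, with a 95% confidence interval by Wilson's method of 43.7 to 83.7 that reflects counting error alone. It was present in 54.0% of all peaks. The paper reports a higher share of bound regions with its RUNX motif, which came from a de novo search. That is another measure, since only exact matches of the hexamer were counted here. With scores at or above the list median, 6 peaks remained at these genes, and 50.0% of them held it, beside 60.1% of the list. In the upper quartile 4 peaks remained, with 50.0% beside 65.0%. The order of the shares was thus the other way under both limits, but 6 and 4 peaks are too few to read this as a difference. In windows of the same width, placed 10 kb towards higher chromosome coordinates, it was found in 3 of 17 at these genes, or 17.6%. Over the list it was found in 30.9% of such windows. It lay within the central 200 bp of 8 of the 18 peaks, or 44.4%, and of 41.8% of all peaks. The interval of the 18 peaks includes the share in the list, and no difference from other peaks is claimed. It treats the peaks as independent, although several lie at the same gene, with 5 at Unc93b1.

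The hexamer was present in high and in low peaks at these genes. The highest, Tlr3 peak 1, held it, and the next, Unc93b1 peak 3, did not. The median score was 6.5 for the peaks that held it (n = 12, range 3.69 to 36.63) and 12.06 for the others (n = 6, range 4.23 to 29.95). In the whole list the order was the opposite, with medians of 14.2 and 10.53. The ranges at these genes overlapped, and 12 and 6 peaks are too few to read this as a difference. The start-site peaks of Tlr2, Tlr4 and Tlr9 and the highest peak of Unc93b1 all held GGAAGT and no TGTGGT. These are the only peaks with GGAAGT alone, 4 of the 18, a combination found in 23.1% of the list. No difference from the list is claimed. The peaks near the start site of Tlr6, and Unc93b1 peak 2 near that of Unc93b1, held both hexamers. GGAAGT was present in 11 of the 18 peaks, or 61.1%, and in 52.8% of all peaks. Both hexamers occurred together in 7 peaks (29.7% of the list), and 2 peaks, Tlr7 peak 1 and Unc93b1 peak 5, held neither (22.9% of the list).

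Other motifs were less frequent. TGACTCA, bound by AP-1, was present in 3 of the 18 peaks (both peaks of Tlr9 and Tlr4 peak 2) and in 9.5% of the list. GAAANNGAA was present in 4 (both peaks of Tlr6, Tlr3 peak 1 and Unc93b1 peak 3) and in 14.7% of the list. TGCGGT was present in 2, both at Unc93b1, and in 20.1% of the list. TGACGT, the hexamer used for the dendritic cell factor zDC, was found in 0 of 18 peaks, which allows a share of up to 16.7%, and in 11.0% of the list. A hexamer is a match of letters and does not show which protein was bound.

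**Figure D4:**
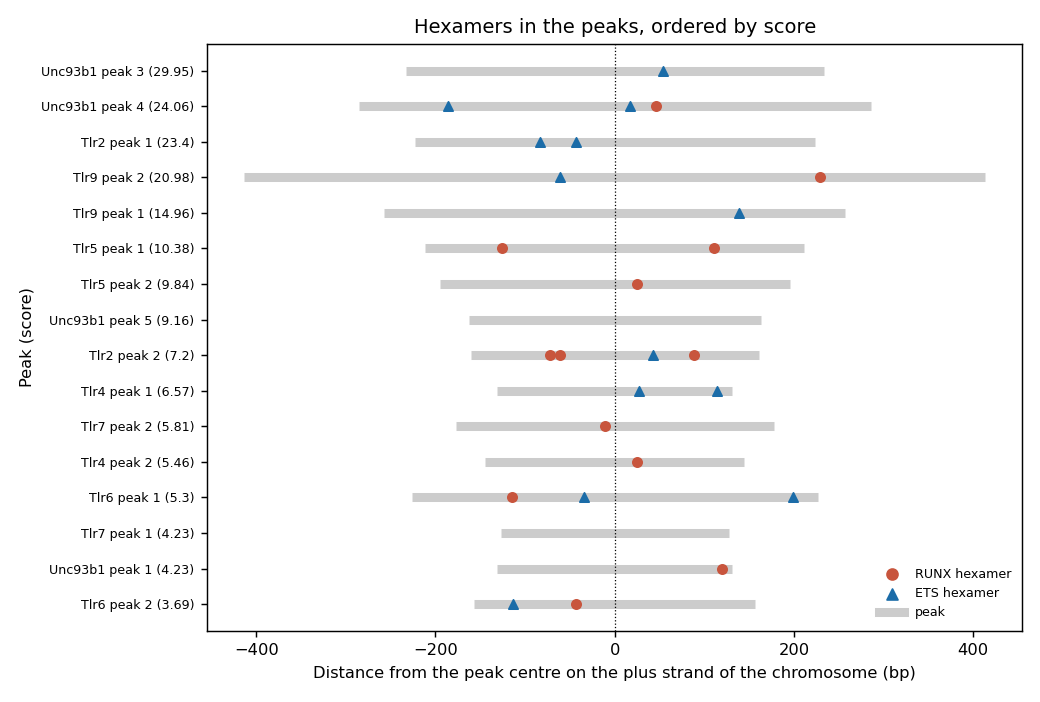
Positions of the RUNX hexamer (circles) and the ETS hexamer (triangles) in the peaks other than Tlr3 peak 1 and Unc93b1 peak 2, in bp from the peak centre, with the extent of each peak in grey and its score in brackets. Peaks are ordered from the highest score to the lowest. Of the 4 peaks with only ETS hexamers 3 score above the list median of 12.14.

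Genes that act with the receptors were then examined, from a list of 44 genes in 5 roles. A peak lay within 20 kb of 38 of them, or 86.4%, beside 50.4% of protein-coding genes, with 108 gene-peak pairs. Their windows were longer, with a median of 73477.5 bp beside 55427 bp for protein-coding genes. For 30 of the 44 the gene's own start site was the nearest to at least 1 of its peaks, beside 32.0% of protein-coding genes. The median of their highest scores was 23.2 at the 38 bound genes, beside 18.13 at all bound protein-coding genes. An upper-quartile peak was present at 19 of the 44, beside 20.2% of protein-coding genes. Among these, the highest peaks of Tlr12, Myd88, Ripk1 and Trafd1 were nearest to the start site of another gene. For Ripk1, named after its values were seen, this was Bphl, at 67 bp.

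The other receptors, Tlr8, Tlr12 and Tlr13, all had a peak, but only at Tlr13, a sensor of bacterial ribosomal RNA, was its own start site the nearest. Tlr13 had 4 peaks, the highest with a score of 13.11 at 7424 bp upstream. The single peak of Tlr8 (score 10.53) was nearest to the start site of Tmsb4x, and that of Tlr12 (score 32.31) lay 38 bp from the start site of Zscan20.

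Of the co-receptors and chaperones 7 of 9 were bound, beside 50.4% of protein-coding genes, with 17 pairs and a median highest score of 49.7. Cd180, a receptor homologue that dampens Tlr4 signalling in dendritic cells, had a peak with a score of 106.89, rank 121 of the list, 3693 bp upstream of its start site. Its partner Ly86 had 6 peaks, of which the highest scored 10.79. Lbp and Cd36, named here after their values were seen, had none.

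All 6 adaptor genes were bound, beside 50.4% of protein-coding genes, with 27 pairs and a median highest score of 15.34. Not all of these peaks were nearest to the adaptor gene. The start site of Ticam1 was the nearest to 0 of its 4 peaks, and that of Tirap to 1 of 3. These 2 genes were named after their values were seen. The highest score in the window of Myd88, the adaptor of most of the receptors, was 50.44, but this peak lay 378 bp from the start site of Oxsr1, and for 1 of the 4 peaks in the window the start site of Myd88 was the nearest. Pik3ap1, an adaptor that links the receptors to phosphoinositide 3-kinase, had 11 peaks, the most of any gene on the list, with a highest score of 25.84 in intron 2.

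Of the kinases and ubiquitin ligases 12 of 16 were bound, beside 50.4% of protein-coding genes, with 30 pairs and a median highest score of 11.82. Chuk, a kinase of the IKK complex, had the highest score, 65.85, in intron 20. Irak2, a kinase of the Myd88 complex, had 7 peaks with a highest score of 46.98. Irak1, Tab1, Tab2 and Tab3, named after their values were seen, had no peak.

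All 10 negative regulators were bound, beside 50.4% of protein-coding genes, with 28 pairs and a median highest score of 29.06. Their windows had a median of 87913 bp, beside 55427 bp for protein-coding genes. Trafd1, named after its values were seen, had a single peak, which lay 175 bp from the start site of Naa25. Irak3, which encodes an inhibitory member of the IRAK family, had 6 peaks, and the highest, in intron 1, scored 109.45, rank 108 of the list. Inpp5d, an inositol phosphatase gene, also had 6 peaks, with a highest score of 28.65. The highest scores at Irak3 and Cd180 were above every score at the 10 genes themselves. The same held for other genes on the list, among them Chuk and Irak2.

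**Figure D5:**
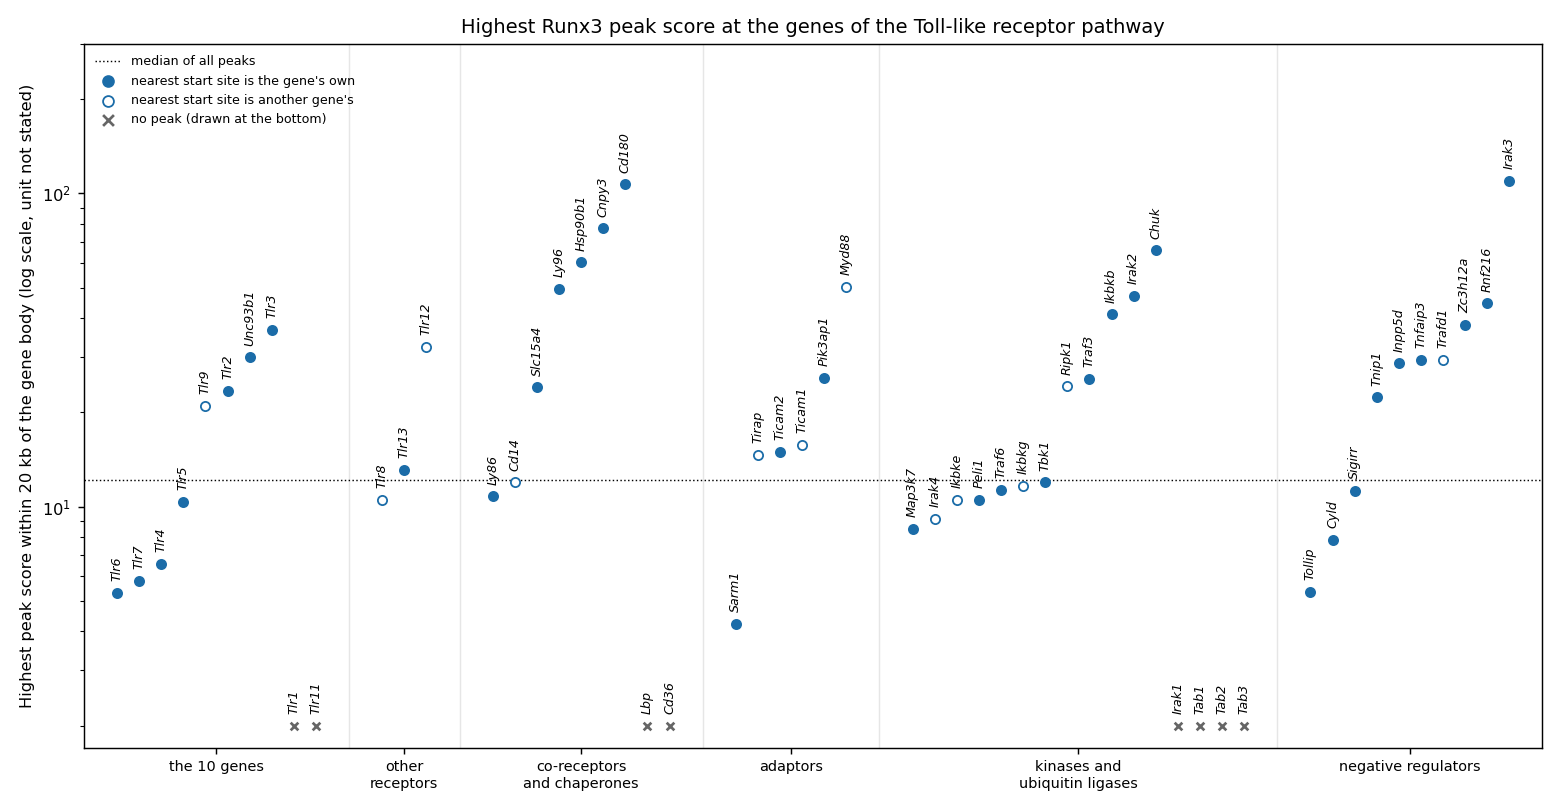
Highest Runx3 peak score within 20 kb of the gene body (log scale, in the caller's unit) for the 10 genes and for the 44 further genes of the pathway by role. Filled circles are peaks whose nearest start site is that of the gene named, open circles peaks nearer to another gene, crosses genes without a peak and the dotted line the list median. Irak3 (109.45) and Cd180 (106.89) are at the top, and Tlr3 (36.63) leads the 10 genes.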

How the data were processed

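Runx3-bound regions of splenic CD4+ cDC were measured in 2 immunoprecipitates and 2 inputs. Reads of 50 bp that matched mm9 at a single place were placed by the authors with bowtie, and MACS2 called the peaks. The submitters' processing notes also name CASAVA 1.8, and the versions of bowtie and MACS2, the threshold and the handling of duplicate reads are not given in the sources used here. The deposited list holds the limits of each peak and its score, whose unit is not stated. Scores ran from 1.33 to 309.3.

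Coordinates are 1-based on mm9. Gene models were those of GENCODE M1, and bases were read from NCBIM37, which is the assembly mm9 is made from. Promoter sequences of another build were not used. The sequences of some peaks are not reported here. Peaks were placed by their centre. Exon and intron numbers refer to the protein-coding transcript with the most exonic bases, and distances to the nearest start site used all annotated transcripts. The motif search covered each peak from end to end, on either strand. A percentile is the share of peaks with the same or a lower score. Shares carry Wilson 95% intervals, which cover counting error only, and the upper limit for a count of 0 rests on 3 counts.

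The genes, the list of 44 pathway genes, the motifs and the rules were chosen with earlier results of these data known, and no test was made. Named pathway genes were those with the highest score or the most peaks in each role, every gene of roles with 4 or fewer genes, and those stated as named after their values were seen. Alternatives were other distances, score limits, joined peaks, any base of the peak, assignment to the nearest start site, basal plus extension domains (5 kb upstream, 1 kb downstream, extension up to 1000 kb), other start sites and other hexamers. The assignment and search steps were tested on simulated data. Computation used Python 3.11.15, numpy 2.4.6, pandas 2.3.3, scipy 1.17.1, pysam 0.24.0 and matplotlib 3.10.9.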

Additional observations from a re-analysis of the deposited data

How the results depend on the processing

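No paired analysis was possible because the deposited list holds 1 call on the pooled samples, and for the same reason no replicate could be left out. Of 50 alternatives 37 gave a value within 1.5 times the one reported, and the others follow. With the gene body alone, 5 of the 10 genes had a peak, with 9 peaks, and 24 of the 44 pathway genes, beside 23.2% of protein-coding genes. Within 50 kb and 100 kb the 10 genes had 28 and 45 peaks. With scores at or above the list median, 4 of the 10 genes had a peak, with 6 peaks, and 24 of the 44 pathway genes, beside 34.0% of protein-coding genes, and 3 of the 10 had one within 1 kb of a start site. With scores in the upper quartile these were 3 genes, 4 peaks, 2 genes at a start site and 19 pathway genes, beside 20.2%. The 34.0% and 20.2% are shares of genes with a peak in the 20 kb window. The start-site share of protein-coding genes under these score limits was not computed, so the start-site counts have no share beside them. Fewer peaks enter under the score limits by construction. TGTGGT was present in 50.0% of the peaks left under either score limit, beside 60.1% and 65.0% of the list, and so no longer above the list. Basal plus extension domains, drawn over all annotated genes, gave a peak to 9 of the 10 genes, Tlr1 included with 7, and to 34 of the 44 pathway genes, beside 43.3% of protein-coding genes. The main limits are the single score per peak, the depth, and the small number of peaks.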
